A study of Mus musculus with 4 samples.

Results

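The genes described here are 41 type I interferon-stimulated genes, taken by symbol from a table of 25571 genes measured by RNA sequencing of mouse skin. All 41 symbols were found in the table. Skin of 4 groups was sequenced, 1 library each, and the groups carry the labels PRP-MNs, PRP, MNs and NC. Per the title of the series, PRP is platelet-rich plasma (a concentrate of blood platelets in plasma, rich in growth factors), MNs are microneedles, and the study concerned hair regrowth. The labels do not spell out NC. The source of the plasma, the material of the microneedles, strain, age, sex, dose, time of harvest and the number of animals behind a library are not stated in the labels. Each value below is therefore 1 library, every difference is between 2 libraries with no replicate check, and no p-value is given.

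Type I interferons, the interferon-alpha family and interferon-beta, are secreted by cells that sense foreign or misplaced nucleic acid. They bind a receptor made of Ifnar1 and Ifnar2, whose kinases Jak1 and Tyk2 act on Stat2, which with Irf9 is part of a complex called ISGF3 that binds the interferon-stimulated response element in the promoters of its target genes. The targets include the sensors that start the response, the transcription factor Irf7 that amplifies it, and enzymes and binding proteins that block viral replication. In skin the response is known from viral infection, from lupus and from early wounds, where interferon-producing cells enter the injured tissue.

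The response element was looked for in the 300 bases around each gene's start, 250 before and 50 after, as RefSeq gives them on GRCm38.p6. Of the 41 genes, 29 had an entry, and Rtp4, Dhx58, Mx2, Usp18, Ifi204, Ifi27l2a, Tor3a, Parp14, Parp9, Oas2, Zbp1 and Mx1 had none. The letters GAAANNGAAA, on either strand, were present in 16 of the 29 genes, or 55.2%, against 1079 of all 27025 genes with an entry, or 3.99%. The longer form GAAANNGAAACT, each match of which also holds the shorter one, was present in 10 of the 29 genes, or 34.5%, against 0.303% of all genes. The gamma-activated site, searched as TTCNNNGAA on both strands, was in 7 of the 29 genes, or 24.1%, against 9.55% of all genes. A match is a description of the letters, not evidence of binding, and Irf7, Ifit2, Oasl1 and Cmpk2 had an entry without a match of GAAANNGAAA. The stretches below are those of genes on which the results turn, from each class of the response, and capitals mark the matches of GAAANNGAAA or of its reverse complement.
Rsad2 (chr12:26456543-26456592, minus strand): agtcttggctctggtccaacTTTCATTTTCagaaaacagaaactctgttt
Isg15 (chr4:156200855-156200916, minus strand): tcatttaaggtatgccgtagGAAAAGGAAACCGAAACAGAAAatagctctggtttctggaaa
Ifit1 (chr19:34640765-34640833, plus strand): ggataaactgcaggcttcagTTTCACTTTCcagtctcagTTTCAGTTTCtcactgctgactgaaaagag
Ifit3 (chr19:34583353-34583436, plus strand): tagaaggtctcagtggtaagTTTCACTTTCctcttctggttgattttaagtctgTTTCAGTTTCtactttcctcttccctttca
Oas1a (chr5:120907526-120907565, minus strand): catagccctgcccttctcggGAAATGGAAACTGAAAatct
Oas3 (chr5:120777705-120777754, minus strand): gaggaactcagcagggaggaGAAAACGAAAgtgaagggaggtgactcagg
Bst2 (chr8:71537567-71537622, minus strand): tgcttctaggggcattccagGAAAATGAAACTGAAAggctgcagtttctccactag
Ddx60 (chr8:61928014-61928086, plus strand): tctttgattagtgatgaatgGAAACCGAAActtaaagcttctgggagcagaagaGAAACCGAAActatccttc
Stat2 (chr10:128270256-128270305, plus strand): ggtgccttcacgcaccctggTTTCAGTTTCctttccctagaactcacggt
The Isg15 stretch holds 3 overlapping matches, and those of Oas1a and Bst2 hold 2 overlapping matches each. The Ifit3 stretch has the same letters as that of its neighbour Ifit3b. Genes with a match had a median log2 difference between PRP-MNs and NC skin of 4.34 (16 genes), those with an entry and no match 4.05 (13 genes) and those with no entry 4.28 (12 genes); these medians lie close together.

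The level of the 41 genes was highest in PRP-MNs skin, next in PRP skin, then in MNs skin and lowest in NC skin. Their median was 58.98 FPKM (fragments per kilobase of transcript and per 1e6 mapped fragments, a level corrected for length and depth) in PRP-MNs skin, 13.05 in PRP skin, 7.14 in MNs skin and 2.48 in NC skin. Together they made up 1.12% of all FPKM in PRP-MNs skin, 0.31% in PRP skin, 0.209% in MNs skin and 0.0759% in NC skin. A level of at least 10 FPKM was reached by 40 of them in PRP-MNs skin, 30 in PRP skin, 16 in MNs skin and 5 in NC skin. The full order PRP-MNs, PRP, MNs, NC held for 39 of the 41 genes, whereas 6.78% of the 14475 genes that reached 1 FPKM in any library had this order. The exceptions were Irf9, which was lowest in MNs skin, and Ddx60, which was slightly higher in MNs than in PRP skin. Both rest on differences near 0 whose sign depends on scaling: rescaled to the same FPKM sum, the log2 difference of Irf9 in MNs over NC skin was 0.14 in place of -0.04, and centred on the median of all genes that of Ddx60 in PRP over MNs skin was 0.07 in place of -0.03.

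**Figure D1:**
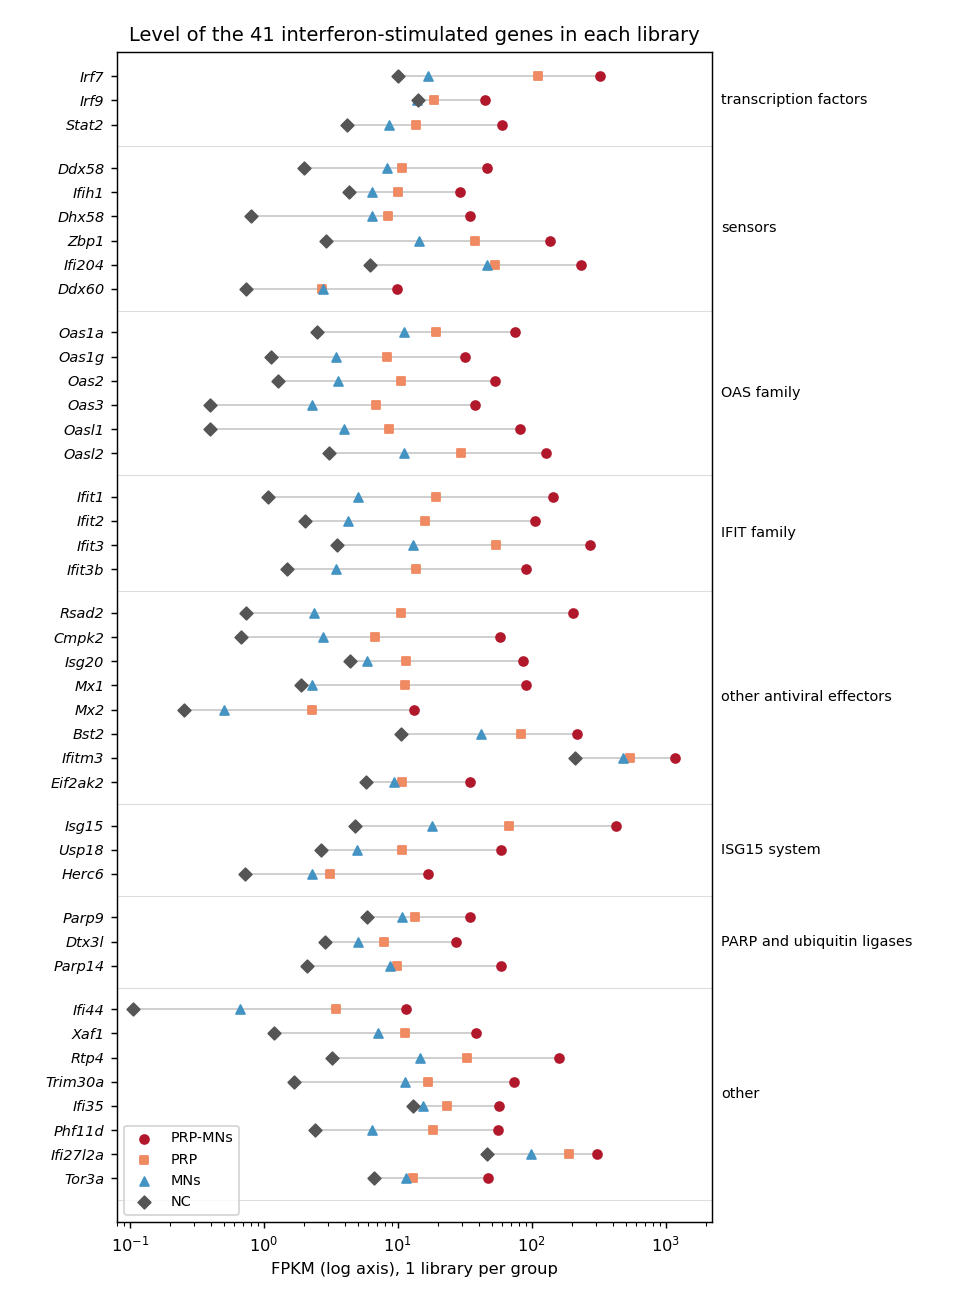
Level of each of the 41 interferon-stimulated genes, in FPKM on a log axis, in the PRP-MNs, PRP, MNs and NC libraries, with 1 point per gene and library and the genes grouped by role. Every gene has its highest point in PRP-MNs skin, and 40 of 41 have their lowest in NC skin.

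Differences were computed as log2(FPKM + 1) of one library minus that of another, over genes at 1 FPKM or more in at least 1 of the pair, and a gene is called changed where the difference is at least 2-fold, a log2 difference of 1. Adding 1 understates the change of genes at low levels. Against NC skin, PRP-MNs skin had all 41 genes at least 2-fold higher, and 17.6% of all 13981 genes tested were called higher. None of the 41 was lower by that fold, against 11.5% of all genes. Only 32 of the 41 reached 1 FPKM in NC skin. With 1 added, a gene under that level in NC skin cannot be called lower than it. In all 3 comparisons with NC skin, a count of none lower thus rests on those 32. Their median log2 difference was 4.24, beside 0.14 for all genes, and 31 of them were at least 8-fold higher, which 2.67% of all genes were. In PRP skin 37 of 41 genes were at least 2-fold higher than in NC skin, against 7.78% of all genes, and none was lower, against 1.46%. Their median was 2.21 beside 0.04 for all genes. Irf9, Eif2ak2, Ifi35 and Tor3a stayed below 2-fold there. In MNs skin 23 of 39 genes tested were at least 2-fold higher than in NC skin, against 15.7% of all genes, and none was lower, against 7.12%. Mx2 and Ifi44 were under 1 FPKM in both MNs and NC skin and were not tested. The median in MNs skin was 1.12 beside 0.16 for all genes. These 3 comparisons share the NC library, so that its reading enters each of them.

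The single treatments also served as baselines. PRP-MNs skin had 40 of the 41 genes at least 2-fold higher than PRP skin, where 9.54% of all genes were called higher, and none lower, where 7.5% of all genes were. The gene below 2-fold was Ifi27l2a, with 308 FPKM in PRP-MNs skin and 188 in PRP skin. Against MNs skin PRP-MNs skin had all 41 genes higher by at least 2-fold, beside 7.16% of all genes, and none was lower, beside 7.39%. The medians were 2.06 over PRP skin, with 0.08 for all genes, and 2.89 over MNs skin, with -0.02 for all genes. PRP skin had 19 of the 41 genes at least 2-fold higher than MNs skin, beside 4.62% of all genes, and none lower, beside 5.99%. Only the 39 genes that reached 1 FPKM in MNs skin could be called lower than it. The median there was 0.96 for the 41 genes and -0.10 for all genes, and 40 of the 41 lay above 0.

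Transcription factors of the response came to 3 genes. Irf7 (ENSMUSG00000025498, chr7:141262706-141266481, minus strand, GRCm38), which amplifies interferon production and is itself a target of it, stood at 320.3 FPKM in PRP-MNs skin, 111 in PRP skin, 16.8 in MNs skin and 9.98 in NC skin. It separated the libraries that received PRP from those that did not. Its log2 difference from NC skin was 4.87 in PRP-MNs skin, 3.35 in PRP skin and 0.69 in MNs skin. Stat2, the subunit of ISGF3 that carries its activation domain, had 59.5 FPKM in PRP-MNs skin, 13.6 in PRP skin, 8.63 in MNs skin and 4.18 in NC skin. Irf9, the DNA-binding subunit, had 44.9 FPKM in PRP-MNs skin, 18.7 in PRP skin, 13.8 in MNs skin and 14.2 in NC skin. Irf9 was the least changed of the 41 against NC skin in all 3 comparisons, with log2 differences of 1.59, 0.37 and -0.04 in PRP-MNs, PRP and MNs skin. The annotated Irf9 gene overlaps Rnf31 by 123 bases on the same strand, where fragments of the neighbours cannot be told apart.

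In 5 of the 6 sensors of nucleic acid, the PRP and MNs libraries lay within 2-fold of each other. Most genes did so too, with 4.62% of all genes called higher in PRP than in MNs skin and 5.99% lower. Ddx58, which encodes the RNA sensor RIG-I, had 46.3 FPKM in PRP-MNs skin, 10.7 in PRP skin, 8.23 in MNs skin and 1.98 in NC skin. Ifih1, which encodes the long-RNA sensor MDA5, had 29.1, 10.1, 6.41 and 4.33 FPKM across PRP-MNs, PRP, MNs and NC skin. Dhx58, which encodes LGP2, a helicase that modulates both, had 34.3 FPKM in PRP-MNs skin, 8.41 in PRP skin, 6.43 in MNs skin and 0.80 in NC skin. It overlaps an annotated antisense gene by 2637 bases, so its value is uncertain where strands were not kept apart. Zbp1, a sensor of Z-form nucleic acid that can start cell death, had 136 FPKM in PRP-MNs skin, 37.7 in PRP skin, 14.3 in MNs skin and 2.91 in NC skin. Ifi204, a DNA-binding member of the p200 family, had 232, 53.4, 46.1 and 6.2 FPKM across PRP-MNs, PRP, MNs and NC skin. Ifi204 had the largest MNs difference from NC skin of the 41 genes, 2.71 on the log2 scale, close to its 2.92 in PRP skin. Ddx60, a helicase linked to RIG-I signalling, had 9.86 FPKM in PRP-MNs skin, 2.70 in PRP skin, 2.77 in MNs skin and 0.74 in NC skin. All 6 sensors were at least 2-fold higher than in NC skin with PRP, beside 7.78% of all genes. With MNs 5 of 6 were, beside 15.7%. In PRP skin 1 of 6, Zbp1, exceeded its level in MNs skin by 2-fold.

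The OAS family makes the messenger 2-5A, which activates the ribonuclease RNase L. All 6 members were at least 2-fold higher than in NC skin in each of the other 3 libraries. Of all genes 17.6% were called higher in PRP-MNs skin, 7.78% in PRP skin and 15.7% in MNs skin. They lie in a pair of clusters on chromosome 5, with Oas2, Oas3, Oas1g and Oas1a in one and Oasl2 and Oasl1 in the other. Oas1a had 74.4 FPKM in PRP-MNs skin, 19.4 in PRP skin, 11.0 in MNs skin and 2.47 in NC skin. Oas1g had 31.9, 8.24, 3.42 and 1.13 FPKM across PRP-MNs, PRP, MNs and NC skin. Reads of this pair of close relatives may be split between them. Oas2 had 53.4 FPKM in PRP-MNs skin, 10.5 in PRP skin, 3.57 in MNs skin and 1.27 in NC skin. Oas3 had 37.5, 6.90, 2.30 and 0.394 FPKM in the same order of libraries. Oasl2, an OAS-like protein with ubiquitin-like repeats, had 127 FPKM in PRP-MNs skin, 29.7 in PRP skin, 11.2 in MNs skin and 3.06 in NC skin. Oasl1, which in mouse restrains translation of Irf7, had 81.4 FPKM in PRP-MNs skin, 8.58 in PRP skin, 3.92 in MNs skin and 0.398 in NC skin. Oasl1 had the largest difference of the family between PRP-MNs and NC skin, 5.88 on the log2 scale, and also between PRP-MNs and PRP skin, 3.10.

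IFIT proteins bind viral RNA that lacks the marks of host mRNA and block its translation, and their 4 genes lie side by side on chromosome 19. Ifit1 had 143 FPKM in PRP-MNs skin, 19.2 in PRP skin, 5.07 in MNs skin and 1.08 in NC skin. Ifit2 had 106, 16.0, 4.27 and 2.02 FPKM across PRP-MNs, PRP, MNs and NC skin. Ifit3 had 273 FPKM in PRP-MNs skin, 54.0 in PRP skin, 12.9 in MNs skin and 3.53 in NC skin. Ifit3b had 90.5, 13.5, 3.42 and 1.48 FPKM in the same order, and since it is a near-identical copy of Ifit3, reads may be split between this pair. The 4 genes moved by similar amounts, with log2 differences over MNs skin of 4.30 to 4.56 in PRP-MNs skin and of 1.69 to 1.99 in PRP skin. Their median difference from NC skin was 5.56 in PRP-MNs skin, 2.92 in PRP skin and 1.19 in MNs skin. In PRP-MNs and PRP skin these were the largest medians of the 8 role groups, while in MNs skin that of the sensors was larger, at 1.80.

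Other antiviral effectors spanned the range from the most to some of the least changed genes. Rsad2, which encodes viperin, an enzyme that makes a chain-terminating nucleotide, had 201 FPKM in PRP-MNs skin, 10.5 in PRP skin, 2.36 in MNs skin and 0.733 in NC skin. Its log2 difference was 6.86 between PRP-MNs and NC skin, seventh in rank among 13981 genes tested, and 4.13 between PRP-MNs and PRP skin. Cmpk2, a mitochondrial nucleotide kinase whose gene starts from the opposite strand 12751 bases from Rsad2 on chromosome 12, had 57.9, 6.78, 2.75 and 0.676 FPKM across PRP-MNs, PRP, MNs and NC skin. Mx1, a dynamin-like GTPase that acts against influenza virus, had 90.6 FPKM in PRP-MNs skin, 11.3 in PRP skin, 2.29 in MNs skin and 1.90 in NC skin. The MNs and NC libraries were thus nearly level for Mx1, with a log2 difference of 0.18. Its neighbour Mx2 had 13.1, 2.30, 0.50 and 0.254 FPKM across PRP-MNs, PRP, MNs and NC skin, and reads may be split between the Mx genes. Isg20, an exonuclease, had 86.2 FPKM in PRP-MNs skin, 11.6 in PRP skin, 5.89 in MNs skin and 4.37 in NC skin. Bst2, or tetherin, which holds budding virus at the cell surface, had 216, 83.4, 41.6 and 10.5 FPKM across PRP-MNs, PRP, MNs and NC skin. Ifitm3, a membrane protein that blocks viral fusion, was the most abundant of the 41 in every library, with 1172 FPKM in PRP-MNs skin, 543 in PRP skin, 475 in MNs skin and 211 in NC skin. Eif2ak2, which encodes the RNA-activated kinase PKR, had 34.7, 10.7, 9.36 and 5.81 FPKM across PRP-MNs, PRP, MNs and NC skin. Ifitm3 and Eif2ak2, with the highest levels of the group in NC skin beside Bst2, had the smallest differences of it between PRP-MNs and NC skin, 2.47 and 2.39 on the log2 scale.

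The ISG15 system attaches and removes a ubiquitin-like protein. Isg15, the modifier itself, had 427 FPKM in PRP-MNs skin, 67.5 in PRP skin, 17.8 in MNs skin and 4.77 in NC skin, and its difference of 6.21 between PRP-MNs and NC skin came after that of Rsad2 as the next largest of the 41. Usp18, which removes Isg15 and also blocks signalling at Ifnar2, had 59.0, 10.8, 4.91 and 2.66 FPKM across PRP-MNs, PRP, MNs and NC skin. It overlaps an annotated non-coding gene on the opposite strand by 15715 bases. Herc6, the mouse ligase for Isg15, had 16.7 FPKM in PRP-MNs skin, 3.14 in PRP skin, 2.29 in MNs skin and 0.728 in NC skin. It overlaps another annotated transcript, Gm45193, by 45031 bases on the same strand, so its value is uncertain.

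Parp9, Dtx3l and Parp14 are neighbours on chromosome 16, and the Parp9 and Dtx3l proteins form an ADP-ribosyl and ubiquitin ligase complex. Parp9 had 34.3 FPKM in PRP-MNs skin, 13.4 in PRP skin, 10.7 in MNs skin and 5.83 in NC skin. Dtx3l had 27.1, 7.88, 5.02 and 2.85 FPKM across PRP-MNs, PRP, MNs and NC skin. These genes overlap by 682 bases on opposite strands, so that part of their signal may be shared. Parp14, a mono-ADP-ribosyltransferase, had 58.5 FPKM in PRP-MNs skin, 9.85 in PRP skin, 8.78 in MNs skin and 2.11 in NC skin. None of these 3 genes differed by 2-fold between PRP and MNs skin, nor did most genes, with 4.62% of all genes called higher and 5.99% lower.

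The remaining 8 genes have other or less settled roles. Rtp4, a chaperone that in mouse restrains the interferon response, had 158 FPKM in PRP-MNs skin, 32.9 in PRP skin, 14.7 in MNs skin and 3.21 in NC skin. It overlaps Gm45338 by 39791 bases on the same strand, with the same uncertainty. Ifi27l2a, a small hydrophobic protein of the Ifi27 family, had 308, 188, 97.6 and 46.3 FPKM across PRP-MNs, PRP, MNs and NC skin, and was the second most abundant of the 41 in PRP, MNs and NC skin. Trim30a, a regulator of innate immune signalling, had 73.3 FPKM in PRP-MNs skin, 16.7 in PRP skin, 11.2 in MNs skin and 1.69 in NC skin. Xaf1, which binds the apoptosis inhibitor XIAP, had 38.0, 11.2, 7.14 and 1.19 FPKM across PRP-MNs, PRP, MNs and NC skin. Trim30a and Xaf1 were among the genes that MNs skin already had well above NC skin, by 2.18 and 1.89 on the log2 scale. Phf11d had 55.5 FPKM in PRP-MNs skin, 18.3 in PRP skin, 6.46 in MNs skin and 2.41 in NC skin. Ifi44 had 11.4, 3.46, 0.667 and 0.106 FPKM across PRP-MNs, PRP, MNs and NC skin. Ifi35, which pairs with the protein Nmi, had 56.8 FPKM in PRP-MNs skin, 23.1 in PRP skin, 15.3 in MNs skin and 13.0 in NC skin. Tor3a, an ATPase of the endoplasmic reticulum, had 47.3, 13.1, 11.6 and 6.59 FPKM across PRP-MNs, PRP, MNs and NC skin.

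Set side by side, transcription factors, sensors and effectors kept different distances between the libraries. Effectors here are the 18 genes of the OAS, IFIT and other antiviral groups. The median log2 difference between PRP-MNs and NC skin was 3.55 for the 3 transcription factors, 4.14 for the 6 sensors and 4.88 for the effectors. Between PRP and NC skin the medians were 1.49, 2.18 and 2.50 for transcription factors, sensors and effectors. The order changed in MNs skin, where the sensors stood highest over NC skin with 1.80. There the effectors stood at 1.16 with 11 of 17 tested at least 2-fold higher, beside 15.7% of all genes. The transcription factors stood at 0.69 with 0 of 3, a count that says little at that share. PRP skin exceeded MNs skin by a median of 0.60 for transcription factors, 0.34 for sensors and 1.20 for effectors. Of these effectors 12 of 18 were at least 2-fold higher, beside 4.62% of all genes. With 1 library a group these medians carry no error, and the differences between classes were not tested.

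**Figure D2:**
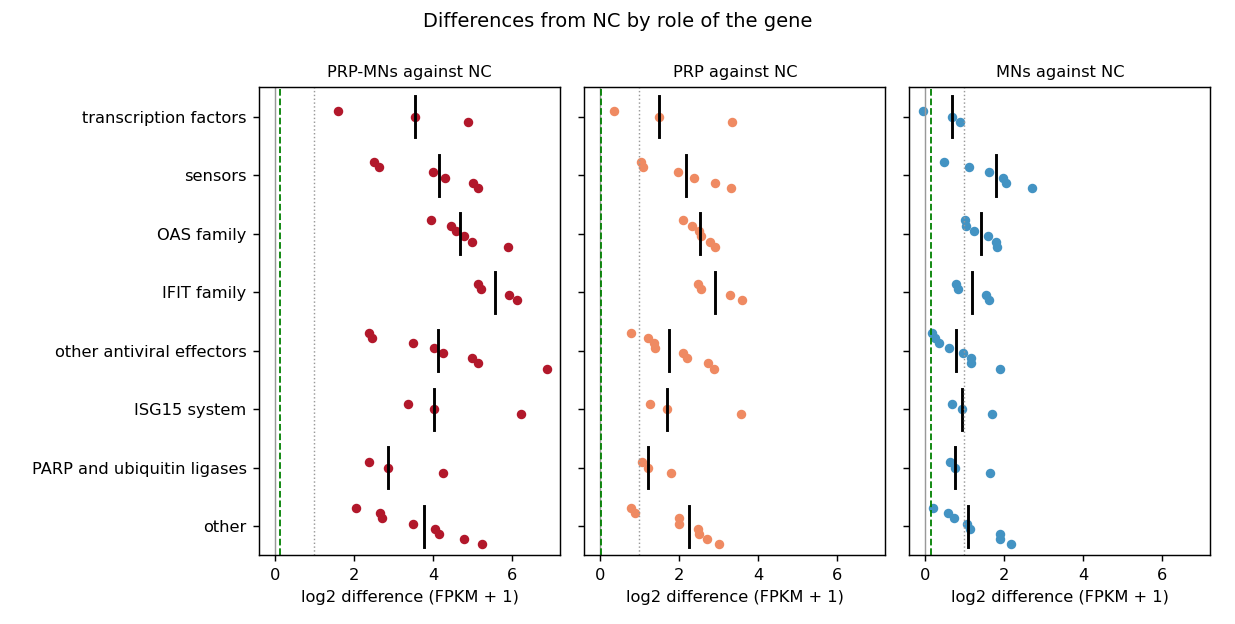
Log2 difference in FPKM + 1 of each of the 41 genes in PRP-MNs, PRP and MNs skin, each against NC skin, by role group, with 1 point per gene and a bar at the median of all genes of the group, those under 1 FPKM in both libraries included. The dotted line is 2-fold and the dashed line the median of all genes. The IFIT genes have the highest bars for PRP-MNs and PRP skin, and the sensors for MNs skin.

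Between PRP and MNs skin the 41 genes divided, as they did between MNs and NC skin. The largest difference was that of Irf7, 2.66 on the log2 scale and eleventh in rank of 13838 genes tested, followed by Ifit3 at 1.99, Mx1 at 1.91 and Isg15 at 1.86. At the other end were Ddx60 at -0.03, Parp14 at 0.15, Tor3a at 0.16, Eif2ak2 at 0.17, Ifitm3 at 0.19 and Ifi204 at 0.21. PRP skin had all 4 IFIT genes and 4 of 6 OAS genes higher by at least 2-fold, beside 4.62% of all genes. None of the 3 PARP and ubiquitin ligase genes was, as is the case for most genes. The 4 leukocyte markers, Ptprc, Laptm5, Coro1a and Cd53, summed to 166 FPKM in PRP skin and 197 in MNs skin, with all 4 lower in PRP skin but none by 2-fold. Among 7 markers of monocytes and macrophages, 1 was at least 2-fold higher in PRP skin, Ly6c2, which marks inflammatory monocytes, at 125 FPKM against 21.6 in MNs skin. Ccr2, the chemokine receptor of the same cells, had 56.3 FPKM in PRP skin and 29.2 in MNs skin. Csf1r, the receptor for a macrophage growth factor, had 28.9 in PRP skin and 46.0 in MNs skin. Cd68 had 79.7 in PRP skin and 103 in MNs skin, Itgam 22.9 and 32.4, and Lyz2 561 and 499. The median log2 difference of the 7 markers was -0.37, and 0 of them were lower by 2-fold, beside 5.99% of all genes. The 5 fibroblast markers summed to 1729 FPKM in PRP skin and 6912 in MNs skin. The part of these cells in the difference was not tested, and in bulk skin more cells of a type and more RNA per cell cannot be told apart.

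**Figure D3:**
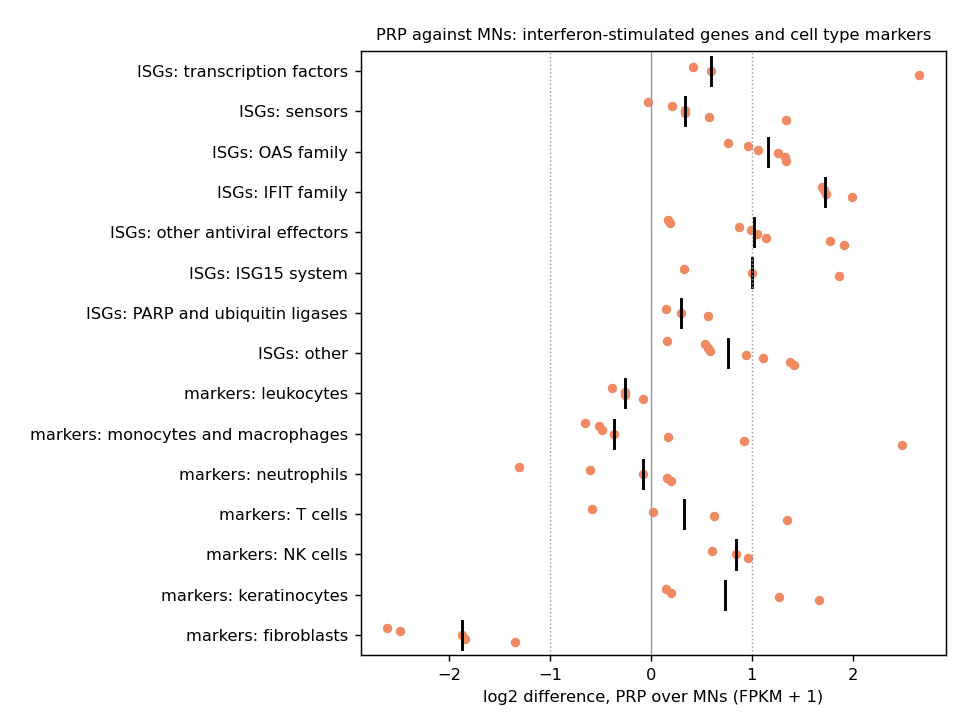
Log2 difference in FPKM + 1 between PRP and MNs skin for the 41 interferon-stimulated genes (ISGs) by role and for cell type markers, with 1 point per gene, a bar at the median of all genes of a row, and dotted lines at 2-fold in each direction. Irf7 stands apart at 2.66 among the transcription factors, the IFIT genes lie from 1.69 to 1.99, and the leukocyte markers lie just below 0.

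On the log2 scale the PRP-MNs difference exceeded the sum of the single ones in most of the genes. For each gene the PRP and MNs differences from NC skin were summed on the log2 scale and subtracted from the PRP-MNs difference. This excess was above 0 in 33 of the 41 genes, with a median of 0.94 beside -0.07 for all genes, and it was at least 1 in 19 of them, beside 4.74% of the 14475 genes. It was largest in Rsad2 at 3.18, Mx1 at 2.71 and Isg20 at 2.44, and lowest in Ifi204 at -0.61 and Bst2 at -0.53. The 8 genes at or below 0 included 3 of the 6 sensors, Dhx58, Zbp1 and Ifi204. Since each library enters the sum once, a reading of 1 library that was off for these genes would move the excess of all of them. The counts of 33 and 19 and the median of 0.94 also depend on the added 1, which understates the single differences of genes at low levels. At a pseudocount of 0.1 the excess of Oasl1, Oas3, Ifit1, Oas2, Herc6 and Dtx3l lies below 1. That of Oas1a falls below 0 there, with a microneedle difference of 1.93 in PRP-MNs over PRP skin and 2.11 in MNs over NC skin. The counts of 33 and 19, the medians and the share of all genes were not recomputed at that setting.

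The difference that went with PRP had a median of 2.89 in the presence of microneedles, in PRP-MNs over MNs skin, and of 2.21 without them, in PRP over NC skin. These comparisons share no library, and across the 41 genes their differences had a Pearson r of 0.634 and a Spearman rho of 0.653, given as a description since the genes come from the same libraries. The microneedle differences were less alike from gene to gene. Their median was 2.06 in PRP-MNs over PRP skin and 1.06 in MNs over NC skin, with all 41 genes counted, and across the genes r was 0.12 and rho 0.173. Mx1 shows the contrast, with a microneedle difference of 2.89 in PRP-MNs over PRP skin and 0.18 in MNs over NC skin. Ifi204 had 2.10 in PRP-MNs over PRP skin and 2.71 in MNs over NC skin. For either treatment, the gap between a gene's differences with and without the other is the excess given above, not a further result.

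**Figure D4:**
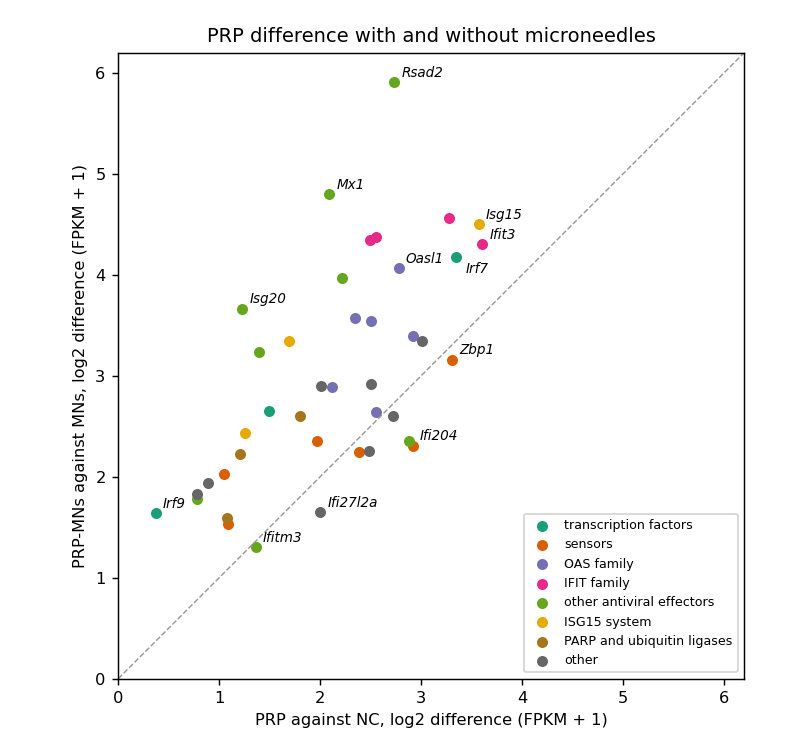
Log2 difference in FPKM + 1 that goes with PRP, with 1 point per gene, coloured by role, showing PRP against NC skin on the horizontal axis and PRP-MNs against MNs skin on the vertical axis, with a diagonal where both are equal. Of the 41 points 33 lie above the diagonal, which are the genes with an excess above 0. Rsad2 lies highest at 5.91.

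The interferons themselves were hardly read. Of 21 interferon genes of types I, II and III in the table, 15 were listed at 0 in every library. Ifnb1, which encodes interferon-beta, had 0.985 FPKM in PRP-MNs skin, or about 12.7 fragments, and was listed at 0 in the other 3 libraries. A count of 0 allows up to 3 fragments, which for Ifnb1 is 0.252 FPKM in PRP skin, 0.215 in MNs skin and 0.207 in NC skin, counting error only. Ifna5 was the one interferon-alpha gene above 0, at 0.0824 FPKM in PRP-MNs skin, or about 0.8 fragments, and Ifnz in MNs skin and Ifnl3 in NC skin had fewer than 3 fragments each. Ifnk, which encodes the interferon-kappa of keratinocytes, had 0.427 FPKM in PRP-MNs skin, 1.54 in PRP skin, 0 in MNs skin and 1.30 in NC skin. Ifng, the type II interferon, had 0.206 FPKM in PRP-MNs skin, or about 4.3 fragments, and 0.157 in PRP skin, or about 3.0. It was listed at 0 in MNs and NC skin, where up to 3 fragments are 0.134 and 0.129 FPKM. Counts this low do not separate the libraries. The order of Ifnk over the libraries was thus not that of the 41 genes.

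The type I receptor chains, Jak1 and Jak2 followed a different order from the 41 genes. Ifnar1, a chain of the type I receptor, had 39.9 FPKM in PRP-MNs skin, 14.3 in PRP skin, 20.1 in MNs skin and 7.67 in NC skin. Ifnar2, the other chain, had 29.5, 17.1, 22.5 and 6.80 FPKM across PRP-MNs, PRP, MNs and NC skin. Both chains were thus higher in MNs than in PRP skin, though by less than 2-fold. Ifnlr1, the receptor chain for interferon-lambda in epithelia, was lower, with 0.975 FPKM in PRP-MNs skin, 3.02 in PRP skin, 1.66 in MNs skin and 5.24 in NC skin. Between PRP-MNs and NC skin at least 2-fold higher levels were seen for 4 of 6 receptor genes, with Ifngr2 and Il10rb beside both type I chains, and 1, Ifnlr1, was lower. Of 3 kinases, Jak2 exceeded its NC level by at least 2-fold in PRP-MNs skin, and Jak1 and Tyk2 did not. In PRP-MNs over NC skin 17.6% of all genes were called higher and 11.5% lower. Tyk2 had 10.6 FPKM in PRP-MNs skin, 8.42 in PRP skin, 8.10 in MNs skin and 7.22 in NC skin, in the order of the 41 genes. Jak2, a kinase of the interferon-gamma receptor, had 39.3, 11.7, 19.3 and 8.80 FPKM across PRP-MNs, PRP, MNs and NC skin. Jak1 had 63.5, 46.3, 59.5 and 43.5 FPKM across the same libraries, also higher in MNs than in PRP skin.

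Of 13 genes that act between a sensor and interferon production, 9 exceeded NC skin by at least 2-fold in PRP-MNs skin, 4 in PRP and 3 in MNs skin, beside 17.6%, 7.78% and 15.7% of all genes. The count in MNs skin lies near that share. Tmem173, which encodes the DNA-pathway adaptor STING, had 24.5 FPKM in PRP-MNs skin, 6.95 in PRP skin, 16.3 in MNs skin and 1.79 in NC skin. It was the one gene of the 13 that was at least 2-fold lower in PRP than in MNs skin, with a log2 difference of -1.12. Irf5, a factor of macrophages and dendritic cells, had 54.8, 24.3, 15.7 and 10.2 FPKM across PRP-MNs, PRP, MNs and NC skin, and Myd88, the adaptor of most Toll-like receptors, had 108, 40.0, 43.2 and 28.6. Irf3, the factor that is active before Irf7, was within 2-fold in all libraries, with 17.2 FPKM in PRP-MNs skin, 19.6 in PRP skin, 19.0 in MNs skin and 20.7 in NC skin. Mavs, the adaptor of RIG-I and MDA5, had 7.22, 10.5, 12.1 and 10.1 FPKM across PRP-MNs, PRP, MNs and NC skin.

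Among 7 negative regulators, 5 exceeded NC skin by at least 2-fold in PRP-MNs skin, 2 of 6 tested in PRP and 1 of 7 in MNs skin, beside 17.6%, 7.78% and 15.7% of all genes, so the count in MNs skin is no more than the share of all genes. Socs3, an inhibitor of receptor signalling, had 121 FPKM in PRP-MNs skin, 38.0 in PRP skin, 41.02 in MNs skin and 24.2 in NC skin. Trex1, a nuclease that degrades cytosolic DNA, had 105, 35.2, 19.1 and 10.6 FPKM across PRP-MNs, PRP, MNs and NC skin. Of 4 other interferon regulatory factors, 3 were at least 2-fold higher and 1, Irf4, lower in PRP-MNs than in NC skin. Of all genes 17.6% were higher there and 11.5% lower. Irf1 had 53.2 FPKM in PRP-MNs skin, 12.6 in PRP skin, 16.0 in MNs skin and 6.02 in NC skin, and Irf4, a factor of lymphocytes, had 0.845, 5.26, 3.31 and 3.87 FPKM across PRP-MNs, PRP, MNs and NC skin. Of the genes more typical of interferon-gamma, 5 of 7 tested were called higher between PRP-MNs and NC skin, beside 17.6% of all genes. Their median log2 difference was 3.24, with Igtp at 3.73 and Cd274 at 3.49. Cxcl9 and Ciita stayed below 2-fold, at 0.83 and 0.72. The GTPase gene Irgm1 had 95.2 FPKM in PRP-MNs skin, 26.3 in PRP skin, 13.9 in MNs skin and 5.20 in NC skin. Cxcl9, a chemokine induced mainly by interferon-gamma, had 2.01, 2.68, 0.668 and 0.693 FPKM across PRP-MNs, PRP, MNs and NC skin. PRP skin exceeded MNs skin by 2-fold in none of the receptors, kinases, negative regulators or other regulatory factors. Since 4.62% of all genes were called higher there, a count of none in lists this short says little about them. Of the interferon-gamma type 1 of 6 tested was called, Cxcl9 at 1.14, and of the ligands the 1 tested, Ifnk at 1.34. Among the 41 genes 19 were called.

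**Figure D5:**
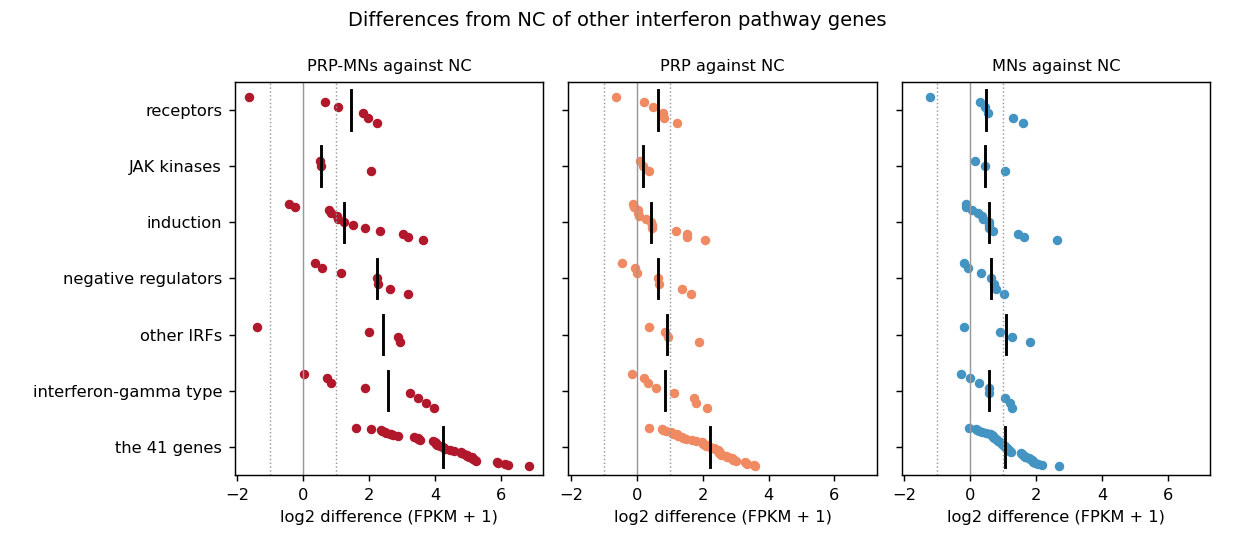
Log2 difference in FPKM + 1 in PRP-MNs, PRP and MNs skin, each against NC skin, for the genes of 6 pathway lists and the 41 interferon-stimulated genes, with 1 point per gene, a bar at the median of all genes of a row (those under 1 FPKM included) and dotted lines at 2-fold in each direction. Ifnlr1 and Irf4 are the points to the left of the lower line for PRP-MNs skin, and none of the 41 genes lies there in any panel.

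Markers of several cell types, though not of all, moved with the same comparisons. In PRP-MNs skin all 4 leukocyte, all 7 monocyte and macrophage and all 5 neutrophil markers were at least 2-fold higher than in NC skin. In that comparison 17.6% of all genes were called higher and 11.5% lower. The leukocyte markers summed to 545 FPKM in PRP-MNs skin, 166 in PRP skin, 197 in MNs skin and 42.4 in NC skin. The monocyte and macrophage markers summed to 2498 FPKM in PRP-MNs skin, 899 in PRP skin, 766 in MNs skin and 208 in NC skin, and those of neutrophils to 189.6, 29.7, 35.1 and 8.53 in the same order, with Ly6g at 0 in PRP and NC skin. For plasmacytoid dendritic cells, the main makers of interferon-alpha in blood, 4 markers summed to 6.30 FPKM in PRP-MNs skin, 8.81 in PRP skin, 31.8 in MNs skin and 12.5 in NC skin, and 1 of them, Cd209d, carried most of the sum in MNs and NC skin. Cd209d had 3.15, 6.15, 29.2 and 10.2 FPKM across PRP-MNs, PRP, MNs and NC skin. Siglech had 2.07 FPKM in PRP-MNs skin, 0.731 in PRP skin, 0.838 in MNs skin and 0.121 in NC skin, Ccr9 had 0.809, 1.57, 0.816 and 2.11, and Klk1 had 0.273, 0.355, 0.911 and 0, so the 4 did not move together. Endothelial markers summed to 130 FPKM in PRP-MNs skin, 37.7 in PRP skin, 78.2 in MNs skin and 11.8 in NC skin, with all 3 at least 2-fold higher in PRP-MNs than in NC skin. The 4 T cell markers summed to 6.22 FPKM in PRP-MNs skin, 13.2 in PRP skin, 6.39 in MNs skin and 22.7 in NC skin, and PRP-MNs skin had both markers tested, Cd3e and Cd3g, lower than NC skin by at least 2-fold. None of 3 skeletal muscle markers differed by 2-fold between PRP-MNs and NC skin. The 4 keratinocyte markers Krt5, Krt14, Krt10 and Krt1 summed to 3506 FPKM in PRP-MNs skin, 11146 in PRP skin, 6923 in MNs skin and 15687 in NC skin, and Krt5 and the dermal collagen gene Col1a1 were present in all 4 libraries, as skin should have. Markers of B cells stayed under 1 FPKM. The part of these cells in the levels of the 41 genes was not tested. Depth, read from the steps between low values, was about 17.2 M fragments in PRP-MNs skin, 15.9 in PRP skin, 18.6 in MNs skin and 19.3 in NC skin, so 3 fragments on a transcript of 1 kilobase are 0.155 to 0.189 FPKM.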

How the data were processed

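RNA of mouse skin was sequenced in 4 libraries, 1 per group. Each library used 1 µg of RNA and NEBNext Ultra reagents, per the labels' protocols. The submitters' processing notes name GRCm38 as build. Neither aligner, quantifier nor strand setting is given in the sources used here. As values, the authors deposited FPKM per gene and library in 1 table. No fragment counts were given with it, so a count test was not used. From it, log2(FPKM + 1) differences were computed for 6 pairs of libraries over genes reaching 1 FPKM in either, and a difference of at least 2-fold was called. Gene positions came from GENCODE M21 and promoters from RefSeq. The 41 genes and the pathway and marker lists were chosen with earlier results of these data known. A signalling gene of the pathway is not reported here. All 41 are named, and of each other list up to 6 of the highest-level genes reaching 1 FPKM may be named, the Ifn ligand genes by count and with values for those above 0; Klk1 is named to complete its list. Depth was estimated as the number of fragments that turns most low FPKM values of single-transcript genes into whole fragments (tolerance 0.02), which held for 21.1% to 24.8% of them, against medians of 3.31% to 3.65% at other depths, so it is approximate. Alternatives varied the pseudocount, filter, scaling and fold. The computation was tested on simulated data. Python 3.11.15, pandas 2.3.3, numpy 2.4.6 and matplotlib 3.10.9 were used.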

Additional observations from a re-analysis of the deposited data

Results flagged for a closer look

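Irf9, the DNA-binding subunit of ISGF3, was the one gene of the 41 whose microneedle difference had opposite directions with and without PRP. Its log2 difference was 1.22 in PRP-MNs over PRP skin, with 44.9 FPKM in PRP-MNs and 18.7 in PRP skin, and -0.0425 in MNs over NC skin, with 13.8 FPKM in MNs and 14.2 in NC skin. With 1 library in each group the difference between these values was not tested, and the value of -0.0425 lies close to 0. The sign depends on the scaling: in MNs over NC skin the difference was 0.14 when libraries were rescaled to the same FPKM sum and 0.10 when mitochondrial genes were left out of that sum, so that both directions were then upward.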

How the results depend on the processing

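No paired analysis was possible because each group had 1 library, and for the same reason no replicate could be left out. Counting genes at least 4-fold higher left 3 of 39 tested in MNs over NC skin in place of 23, beside 3.7% of all genes. In PRP-MNs over PRP skin it left 22 of 41 in place of 40, beside 1.91% of all genes. In PRP over MNs skin it left 1 of 41 in place of 19, beside 0.571% of all genes. Under the other settings (pseudocount of 0.1, filter at 5 FPKM or none, 3 rescalings, related genes left out) the counts ranged from 17 to 28 in MNs over NC skin and from 15 to 22 in PRP over MNs skin, and no gene of the 41 was at least 2-fold lower in any comparison. The numbers tested differ: in MNs over NC skin the 17 were of 27 genes at the 5 FPKM filter, and the 28 of 39 at a pseudocount of 0.1. With a pseudocount of 0.1 the median differences were 4.88 in PRP-MNs, 2.92 in PRP and 1.53 in MNs skin over NC skin. Rescaling to the same FPKM sum moved the median of all genes to 0.29 in PRP-MNs over NC skin, to 0.34 in MNs over NC skin and to -0.24 in PRP over MNs skin. It also gave 3.69% of all genes higher and 7.86% lower in PRP over MNs skin. Centring on the median of all genes gave 12.4% higher and 9.06% lower in MNs over NC skin. The share of promoters with the response element was 41.4% before the start and 34.5% for the longer form, in place of 55.2%. With the 2-fold threshold kept, calls of single genes changed in at most 8 of 244 comparisons under one setting. No called difference changed sign; of those under 2-fold, Irf9 in MNs over NC skin turned to 0.14 and 0.10 under the rescaled sums, with and without mitochondrial genes, and Ddx60 in PRP over MNs skin to 0.07 when centred.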
